A study of Mus musculus with 3 samples.

Results

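The genes described here are 10 ligand, receptor and antagonist genes of the Tgf-beta and activin branch, taken from a named list, out of 19938 genes measured in ureteric duct cells of mouse embryos. They are the ligand genes Tgfb1, Tgfb2, Tgfb3, Inhba and Inhbb, the receptor genes Tgfbr1, Tgfbr2, Tgfbr3 and Acvr1b, and the antagonist gene Fst. All 10 were found, each with 1 probe set that carries no other symbol. The data are 3 microarrays of a single group of CD-1 embryos at 10.5 days post coitum, all carrying the transgene Tg(Hoxb7-EGFP)33Cos, with sex given as unknown. The Hoxb7 promoter of this transgene marks the nephric duct and its derivatives, and its green cells were sorted after dissection and trypsin treatment, with 1 duct per sample. There is no second group, so each gene could be set only against the background of its own array. The labels do not state whether different embryos or litters gave the samples, so p-values reflect the spread of these 3 samples alone, and that spread may be technical.

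Tgf-beta and activin ligands are secreted dimers that bring together a type II and a type I receptor kinase, and the type I receptor then phosphorylates Smad2 and Smad3, which enter the nucleus with Smad4. Tgf-beta signals through Tgfbr2 and Tgfbr1, activin through Acvr2a or Acvr2b and Acvr1b, and follistatin binds activin and keeps it from its receptors. In cultured rodent nephric ducts, activin holds back budding towards Gdnf and follistatin relieves this, and Tgf-beta slows branching of cultured kidney rudiments.

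Signals are the authors' deposited values, read as log2. Odorant and pheromone receptor genes, which sensory neurons of the nose use, served as background (1210 probe sets). The cutoff of an array was their 95th percentile, 5.70, 5.73 and 5.71 log2 units on arrays 1, 2 and 3. A gene counts as above background where its value minus the cutoff was above 0 in limma's one-sided test at a Benjamini-Hochberg adjusted p under 0.05 over all single-symbol probe sets. By construction about 5% of the receptor probe sets lie above the cutoff, and the share of silent genes that pass is not known. Exactly the same value was deposited for all 3 arrays for 50.8% of genes, among them 3 of the 10 genes here, Tgfbr2, Inhbb and Fst, and the error of such genes is understated. A further 5, Tgfb1, Tgfbr1, Tgfbr3, Inhba and Acvr1b, repeated a value on 2 of the 3 arrays, so their SEs may be too small as well. All 10 measured duct markers passed, with Gata3, a transcription factor needed for the duct, at 9.65, 9.28 and 9.35 and Hoxb7, whose promoter drives the transgene, at 7.32 on every array. Markers of endothelium passed in 13 of 14 cases, of metanephric mesenchyme in 4 of 9 and of stroma in 3 of 9. Macrophage and red cell markers passed in 1 of 8 and 1 of 7 cases, and 56.1% of all genes passed. The median of the mean signals was 7.40 log2 units for the endothelial list and 7.33 for the duct list. Because probe sets differ in affinity, these medians give no cell proportions.

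Of the 10 genes, 5 were above background, or 50%, against 56.1% of all genes. Receptor genes passed in 3 of 4 cases and ligand genes in 2 of 5, and Fst did not pass. The shares over all genes include the odorant and pheromone receptor genes, of whose probe sets about 5% lie above the cutoff by construction. Among genes matched to a RefSeq gene start, 8969 of 15614 passed. With the odorant and pheromone receptor genes left out, it was 61.1% of 14601. The median of the 10 mean signals was 5.88 log2 units, against 6.04 for all genes, and since probe sets differ in affinity these medians do not rank transcript amounts. With the cutoff at the 99th percentile of those probe sets, 2 of the 10 passed, Tgfbr1 and Tgfbr3, against 36.1% of all genes. With the cutoff raised by 1 log2 unit 1 passed, Tgfbr1, against 28.3% of all genes. In sorted bulk RNA, a low signal from all cells and a higher one from few cells cannot be told apart.

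**Figure D1:**
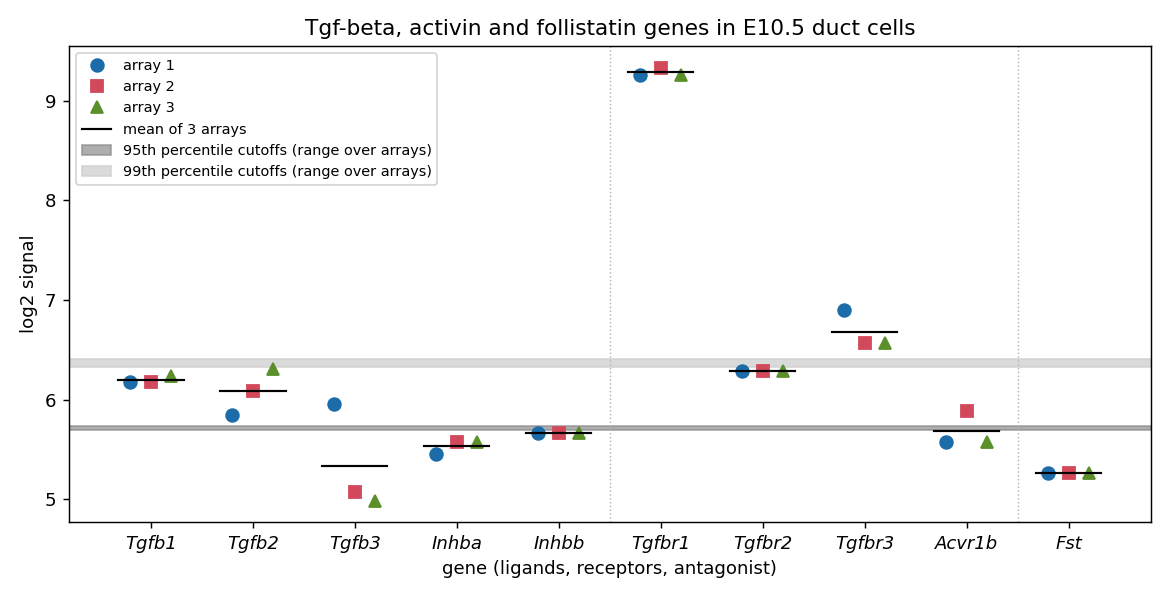
Log2 signal (vertical axis) of the 10 genes (horizontal axis) on arrays 1, 2 and 3, with the mean of the 3 arrays as a bar and the ranges of the 95th and 99th percentile cutoffs as bands. Tgfbr1 lies above 9 on all arrays, Tgfbr3 lies above both bands, and Tgfb3 is above the lower band on array 1 only.

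Tgfbr1 encodes the type I receptor kinase of Tgf-beta, also called Alk5. It read 9.26, 9.33 and 9.26 log2 units on arrays 1, 2 and 3. These values lay 3.57 ± 0.02 log2 units above the cutoffs (SE, n = 3 arrays, limma, Benjamini-Hochberg adjusted p = 2.29e-06). No receptor probe set of the background had a mean as high, and the Tgfbr1 call held under all 12 alternative settings tried.

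Tgfbr2 encodes the type II receptor that binds Tgf-beta and activates Tgfbr1. Its deposited value was 6.28 log2 units on all 3 arrays, so no spread can be given. It lay 0.57 log2 units above the mean cutoff (limma, adjusted p = 5.42e-05, an error understated by the tie). Of the 1210 background probe sets, 15 (1.24%) had a mean at or above this value. At the 99th percentile its value minus cutoff was -0.10 log2 units, and Tgfbr2 was no longer called.

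Tgfbr3 encodes betaglycan, a co-receptor that presents Tgf-beta ligands, Tgfb2 above all, and that also binds inhibin. It read 6.90 on array 1 and 6.57 on arrays 2 and 3. Array 1 was therefore the high one, and all values lay above the cutoffs. The distance was 0.97 ± 0.10 log2 units (SE, n = 3 arrays, limma, adjusted p = 0.00186), and 7 background probe sets (0.579%) had a mean as high.

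Acvr1b encodes the type I receptor kinase of activin and Nodal, also called Alk4. It read 5.58, 5.88 and 5.58 log2 units on arrays 1, 2 and 3. Array 2 lay 0.15 log2 units above its cutoff, while arrays 1 and 3 had values minus cutoff of -0.12 and -0.13. The mean distance was -0.03 ± 0.07 log2 units (SE, n = 3 arrays), so Acvr1b sat at the cutoff within its error and did not pass.

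Among the ligand genes, Tgfb1 read 6.18, 6.18 and 6.23 log2 units. It lay 0.49 ± 0.02 log2 units above the cutoffs (SE, n = 3 arrays, limma, adjusted p = 0.000227). Its background share was 18 probe sets, or 1.49%. It passed without each of the arrays in turn, but not at the 99th percentile, where its distance was -0.18 log2 units.

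Tgfb2, which needs betaglycan more than the other isoforms do, read 5.85, 6.09 and 6.31 log2 units on arrays 1, 2 and 3. Every array lay above its cutoff, by 0.15, 0.36 and 0.61 log2 units, but the spread was wide. The mean distance was 0.37 ± 0.11 log2 units (SE, n = 3 arrays, limma, adjusted p = 0.0326). The call was lost without array 2 (adjusted p = 0.125) and without array 3 (adjusted p = 0.0594), and with odorant receptors alone as background (adjusted p = 0.0673). Over its 12 alternatives the adjusted p ran between 0.000429 and 1.00.

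Tgfb3 differed most between arrays of the 10 genes. It read 5.95 log2 units on array 1, against 5.07 and 4.99 on arrays 2 and 3, a range of 0.96 that 3.40% of all genes reached or passed. Array 1 lay 0.26 log2 units above its cutoff, and arrays 2 and 3 had values minus cutoff of -0.66 and -0.72. The mean distance was -0.37 ± 0.25 log2 units (SE, n = 3 arrays), and Tgfb3 did not pass. The distance was -0.69 log2 units without array 1, -0.23 without array 2 and -0.20 without array 3, and Tgfb3 passed in none of these fits. Array 1 was also the array with high embryonic globin signal, with Hbb-y at 10.02 log2 units on array 1 against 5.31 and 5.45 on arrays 2 and 3. The 7 measured red cell markers had summed log2 signals of 46.3 on array 1 and 36.7 on each of arrays 2 and 3. The globin genes Hbb-y, Hba-x and Hbb-bh1 carried this difference. Alas2, Klf1 and Rhag each held a single value on all arrays, and Gata1, which alone passed the test over the 3 arrays, was highest on array 3. The part of red cells in the Tgfb3 and Tgfbr3 values of array 1 was not tested.

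Inhba and Inhbb encode the beta A and beta B subunits that form activins as dimers and inhibins with the alpha subunit. Inhba read 5.45, 5.58 and 5.58 log2 units, below the cutoff on every array, with a mean distance of -0.18 ± 0.03 (SE, n = 3 arrays). Inhbb held 5.67 log2 units on all 3 arrays, at a distance of -0.04 log2 units. Neither passed, and 89 (7.36%) and 68 (5.62%) of the background probe sets had means at or above theirs. A signal this close to the cutoff is not distinguished from background on these arrays, which does not show that the transcripts are absent.

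Fst encodes follistatin, the secreted binder of activin. It held 5.26 log2 units on all 3 arrays, with a distance of -0.45 log2 units, and 152 background probe sets (12.6%) had means at or above it. The Fst value, 5.26245, was deposited on all 3 arrays for 112 probe sets, 7 of them background receptors, and the red cell factor gene Klf1 held it too. The Inhbb value, 5.67031, was held by 28 probe sets, while the Tgfbr2 value, 6.28252, was held by Tgfbr2 alone. Whether such shared values are specific to a gene was not tested.

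**Figure D2:**
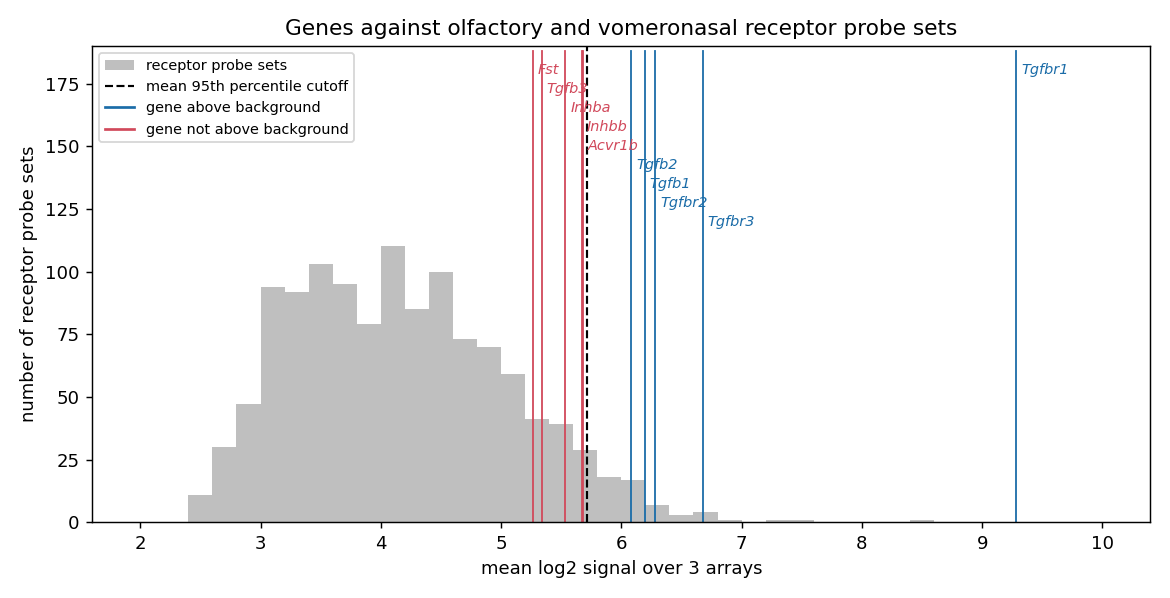
Number of olfactory and vomeronasal receptor probe sets (vertical axis, grey bars) by mean log2 signal over 3 arrays (horizontal axis), with a line for the mean of each of the 10 genes and a dashed line at the mean 95th percentile cutoff. The 5 genes above background lie right of the dashed line, Tgfbr1 beyond all grey bars, and Inhbb and Acvr1b lie just left of it.

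The RefSeq table of gene starts (GRCm38.p6) matched 7 of the 10 genes; Tgfb3, Tgfbr3 and Fst were not matched. For a gene with several starts in the table, the most upstream of them was used. The 250 bases before the start are shown for a gene far above background, for the ligand gene whose call depended on the arrays used, and for a gene below the cutoff. Capitals mark CG dinucleotides and the TATA motif TATAAA, and the sequences run 5′ to 3′ on the gene's strand. The Tgfbr1 sequence is chr4:47352972-47353221 on the plus strand, that of Tgfb2 is chr1:186705990-186706239 on the minus strand, and that of Inhba is chr13:16011601-16011850 on the plus strand.
Tgfbr1: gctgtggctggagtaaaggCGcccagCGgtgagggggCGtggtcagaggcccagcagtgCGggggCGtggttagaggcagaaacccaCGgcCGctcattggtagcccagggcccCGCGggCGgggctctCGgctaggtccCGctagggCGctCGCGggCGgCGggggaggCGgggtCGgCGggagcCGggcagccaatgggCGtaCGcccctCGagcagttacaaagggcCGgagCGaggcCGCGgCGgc
Tgfb2: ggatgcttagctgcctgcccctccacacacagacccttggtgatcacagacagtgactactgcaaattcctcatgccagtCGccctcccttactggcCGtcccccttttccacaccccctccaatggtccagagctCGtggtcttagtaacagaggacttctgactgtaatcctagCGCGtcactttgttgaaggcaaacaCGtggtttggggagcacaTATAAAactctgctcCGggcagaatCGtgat
Inhba: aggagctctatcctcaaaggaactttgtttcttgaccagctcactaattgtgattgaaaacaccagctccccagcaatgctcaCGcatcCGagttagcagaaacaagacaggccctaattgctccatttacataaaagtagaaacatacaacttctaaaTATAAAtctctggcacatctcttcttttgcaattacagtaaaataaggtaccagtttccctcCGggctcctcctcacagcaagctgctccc

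The Tgfbr1 window held 29 CG dinucleotides, a number that 8.95% of the windows of 15614 measured genes reached or passed. The Tgfb2 window held 8 and the Inhba window 3. Among the other matched genes the counts were 42 for Acvr1b, 21 each for Tgfb1 and Inhbb, and 12 for Tgfbr2. The motif TATAAA, searched on the gene's strand, began 31 bases before the start in Tgfb2 and 91 bases before it in Inhba, and was found in 7.25% of all windows. The Smad motif CAGAC, searched on both strands, was found in the Tgfb2 window at 2 places and in the Tgfbr2 window at 1, and in 41.3% of all windows.

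Over all genes, the share above background differed with the CG count of the window. With the receptor genes left out, it was 79.9% of 3952 genes with 20 or more CG dinucleotides, and 75.9% of 4141 genes with 11 to 19. It was 48.4% of 4384 genes with 3 to 10, and 23.9% of 2124 genes with 2 or fewer. Read against this description, Tgfbr1 and Tgfb1 were above background in the class with the highest share, while Acvr1b and Inhbb were in that class and did not pass. Tgfbr2, with 12 CG dinucleotides, was above background in the class of 11 to 19. Tgfb2, above background, shared the class of Inhba, which was not. The arrays measure transcripts and not promoters, and nothing about binding follows from these letters.

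Other genes of the pathway were listed by role, 60 in all, and 54 had a probe set of their own. Of these, 38 were above background, or 70.4%, against 56.1% of all genes, a share that includes the odorant and pheromone receptor genes. With those left out, it was 61.1% of the 14601 genes matched to a gene start. The median mean signal of the 54 genes was 6.44 log2 units, against 6.04 for all genes, again with no ranking of transcript amounts. At the 99th percentile 26 passed, or 48.1%, against 36.1% of all genes.

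Of the other receptor and co-receptor genes, 6 of 8 passed, against 56.1% of all genes, and 3 at the 99th percentile, against 36.1%. With the cutoff raised by 1 log2 unit 1 passed, against 28.3% of all genes. Without array 3, in a fit with a common spread for all genes, 5 passed, as Cfc1 lost its call. Acvr2a, a type II receptor of activin, read 8.65, 8.65 and 8.35 log2 units (limma, adjusted p = 6.47e-05). Endoglin, the co-receptor gene Eng known from endothelium, read 6.66, 6.58 and 6.89, and was lowest on array 2. Of the 14 endothelial markers, 13 were also lowest on array 2, and their summed log2 signals were 108 on array 1, 98.6 on array 2 and 109 on array 3, with Emcn at 10.40, 9.28 and 10.53. The part of endothelial cells in the Eng signal, and in those of the 10 genes, was not tested. On array 2 the value minus cutoff was the lowest of the 3 arrays for Tgfb1 (0.45 log2 units), Tgfbr2 (0.55), Tgfbr3 (0.83), Inhbb (-0.06) and Fst (-0.47). The deposited values of these 5 genes on array 2 were each repeated on at least 1 other array. The cutoff of array 2 was the highest of the 3 arrays, at 5.73 log2 units. A repeated value therefore lies lower against it by construction, and no reading about cell content follows from this order. Acvr1c, a type I receptor of the same class as Acvr1b, held 4.44 and did not pass. Named after their values were seen, Acvr2b, the other type II receptor of activin, held 6.44 on all 3 arrays, and Acvrl1, a type I receptor known from endothelium, read 6.44, 6.45 and 6.44. Both passed. At the 99th percentile neither was called, although both lay above that cutoff on all 3 arrays.

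**Figure D3:**
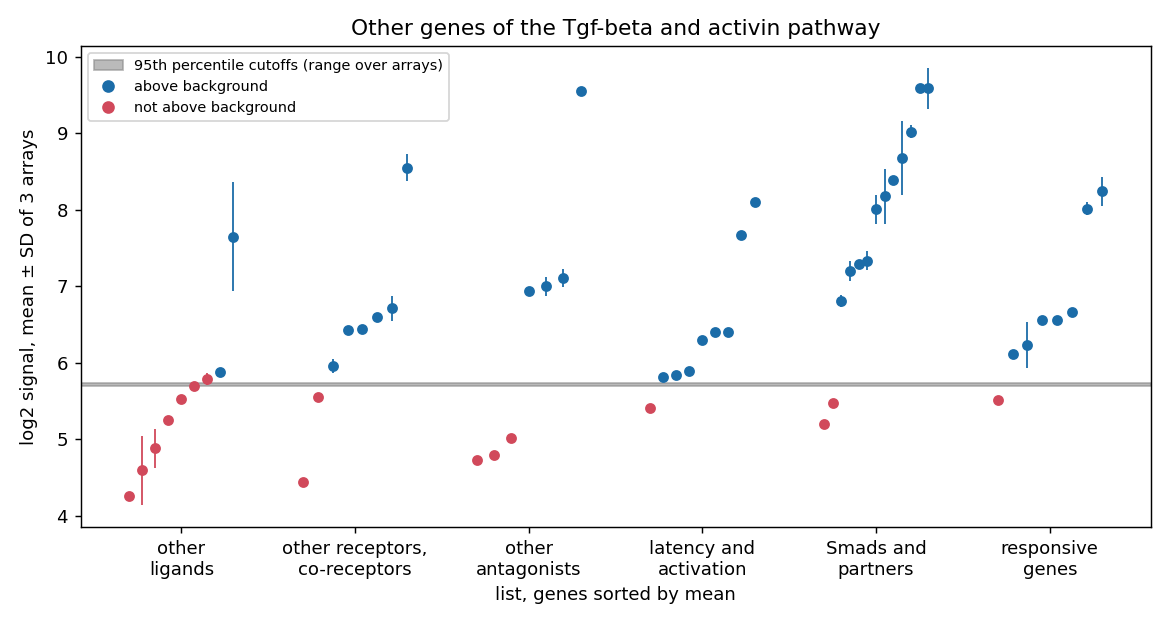
Mean log2 signal with SD over 3 arrays (vertical axis) of the 54 other pathway genes by list (horizontal axis), coloured by the test against background. In the list of Smads and partners 11 of 13 genes lie above the band of cutoffs. In the list of other ligands 2 of 9 passed, against 56.1% of all genes.

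Of the other ligand genes, 2 of 9 passed, against 56.1% of all genes, and 1 at the 99th percentile, against 36.1%. Gdf11, a ligand needed for ureteric bud formation in mice, read 8.06, 6.82 and 8.06 log2 units on arrays 1, 2 and 3 (limma, adjusted p = 0.00888). Its value on array 2, where endothelial markers were also low, was the low one, yet all 3 arrays lay above the 99th percentile cutoffs. The Gdf11 value of arrays 1 and 3 was also held by 10 other probe sets on at least 1 array. The part of endothelial cells in the Gdf11 signal was not tested. Inha, the inhibin alpha subunit gene, held 5.88 on all 3 arrays, so its value does not depend on array 3. Its call was lost without array 3, in a fit where limma gave all genes a common spread. The Inha call was also lost where tied probe sets took the spread of untied ones. The left-right ligand gene Lefty2 had the lowest mean of this list and held 4.26. Named after its values were seen, Nodal read 5.84, 5.84 and 5.70 and did not pass (limma, adjusted p = 0.0949).

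Of the other antagonist genes, 4 of 7 passed, against 56.1% of all genes. All 4 also passed at the 99th percentile, against 36.1% of all genes. Fstl1, a distant relative of follistatin, read 9.58, 9.53 and 9.58 log2 units (limma, adjusted p = 3.08e-06). Wfikkn1, an antagonist of myostatin and Gdf11, read 7.25, 7.04 and 7.04. Dcn, the gene of the Tgf-beta-binding proteoglycan decorin and a stromal marker, held 4.74 and did not pass. Named after its value was seen, Fstl3, whose protein binds activin as follistatin does, held 6.94 on all arrays and passed.

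Genes of latency and activation keep Tgf-beta bound in the matrix or release it. Of these, 8 of 9 passed, against 56.1% of all genes, and 2 at the 99th percentile, against 36.1%. Without array 3, in a fit where limma gave all genes a common spread, the count was 5, as Thbs1, Itgb8 and Lrrc32 lost their calls. Thbs1 and Lrrc32 each held a single value on all arrays, so their values do not depend on array 3. Both also lost their calls where tied probe sets took the spread of untied ones. The 2 genes that passed at the 99th percentile were Itgav, an integrin chain that activates latent Tgf-beta, at 8.10 log2 units and the latent Tgf-beta binding protein gene Ltbp1 at 7.68, each with a single value on all arrays. Itgb6, a partner chain of Itgav, held 5.41 and did not pass. Of the 9 genes, 8 held a single value on all 3 arrays, so almost no spread was available in this list.

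Of the Smads and partners, 11 of 13 passed, against 56.1% of all genes, and 11 at the 99th percentile, against 36.1%. Trim33, a ubiquitin ligase that acts with Smad2, Smad3 and Smad4, read 9.64, 9.82 and 9.30 log2 units (limma, adjusted p = 8.17e-05). Smurf2, a ubiquitin ligase that targets Smads and receptors, read 9.62, 9.56 and 9.58 from its brighter probe set, and 8.01 on average from the other. Foxh1, a partner of Smad2 in Nodal signalling, had the lowest mean and did not pass, at 5.21, 5.18 and 5.21. Named after their values were seen, the signal transducers Smad2, Smad3 and Smad4 averaged 9.02 ± 0.08, 8.01 ± 0.19 and 8.18 ± 0.36 log2 units (SD, n = 3 arrays). All 3 also passed with the cutoff raised by 1 log2 unit, as did 28.3% of all genes.

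Of the genes known to respond to Tgf-beta, 7 of 8 passed, against 56.1% of all genes, and 5 at the 99th percentile, against 36.1%. Fn1, the fibronectin gene, read 8.43, 8.04 and 8.26 log2 units, and the transcription factor gene Tsc22d1 read 8.12, 7.97 and 7.96. The cyclin-dependent kinase inhibitor gene Cdkn2b held 5.51 and did not pass. These genes also answer to other signals, and without a group in which the pathway was changed their levels say nothing about its activity.

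**Figure D4:**
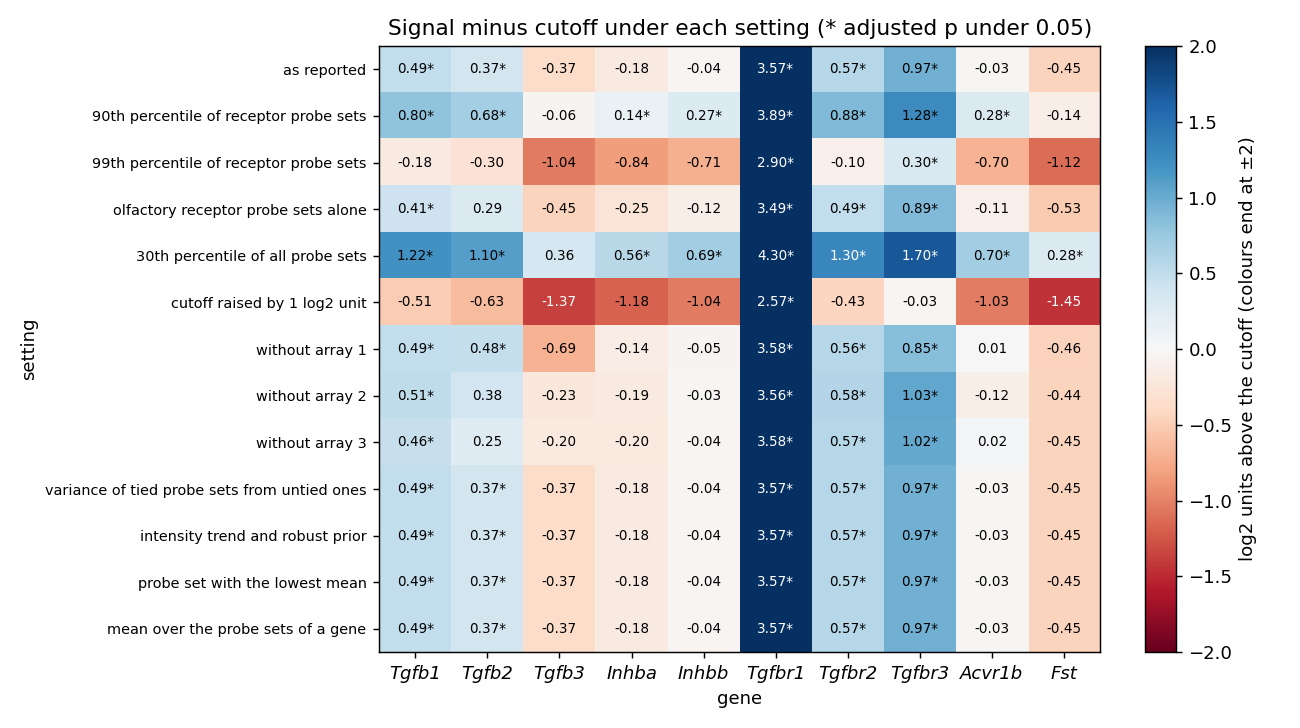
Value minus cutoff in log2 units (numbers and colour) of the 10 genes (horizontal axis) under each setting (vertical axis), with an asterisk where the adjusted p was under 0.05. Tgfbr1 carries an asterisk in every setting, and Tgfb3 in none.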

How the data were processed

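The authors' deposited values, 1 for each of 35557 probe sets and 3 arrays, span 1.90 to 14.2 and were therefore taken as log2 signals. The submitters' processing notes name Affymetrix Expression Console, while its algorithm and version, and any background correction or filter, were not given in the sources used here. RNA had 1 round of amplification, per the labels' protocols. The platform annotation gave 21789 probe sets a single symbol, and 21698 of these matched the RefSeq gene table by Entrez number. Those with several symbols (1621) or none (12147) were left out. Of several probe sets of a gene, the one with the highest mean was used. An intercept model of value minus cutoff was run in R 4.3.3 with limma 3.58.1, its variances were moderated by empirical Bayes, and p-values were adjusted over the 21789 probe sets. The fit was tested on simulated data. The number of arrays limits the precision, and probe sets differ in affinity, so no test set a gene's level against another's; list medians and the order of means within a list are descriptions. The genes, the lists and the tests were chosen with earlier results of these data known. Besides the 10 genes, the naming rule took from each list the 2 highest means and the lowest. Alternatives changed the cutoff, the background probe sets, the moderation, the spread of tied probe sets, the probe set of a gene and the arrays used.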

Additional observations from a re-analysis of the deposited data

How the results depend on the processing

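The cutoff set the counts. Of the 10 genes, 5 passed as reported, 8 at the receptors' 90th percentile, 9 at the 30th percentile over all probe sets, 2 at the receptors' 99th percentile and 1 where 1 log2 unit was added to the cutoff. Over all genes the count was 11194 as reported. It was 13052 (65.5%) at the receptors' 90th percentile and 15005 (75.3%) at the 30th percentile over all probe sets. At the 99th percentile it was 7193, and with the raised cutoff 5647. For the other pathway genes the count was 38 as reported and 19 with the raised cutoff. These follow from the height of the cutoff. Signs turned with it: the values minus cutoff at the 90th percentile were 0.28 for Acvr1b, 0.14 for Inhba and 0.27 for Inhbb. At the 30th percentile over all probe sets they were 0.70 for Acvr1b, 0.28 for Fst, 0.56 for Inhba, 0.69 for Inhbb and 0.36 for Tgfb3, the last without a call. At the 99th percentile they were -0.18 for Tgfb1, -0.30 for Tgfb2 and -0.10 for Tgfbr2. With the raised cutoff they were -0.51 for Tgfb1, -0.63 for Tgfb2, -0.43 for Tgfbr2 and -0.033 for Tgfbr3. Leaving out 1 array gave 4 to 5 of the 10 genes, 33 to 38 of the other pathway genes and 10354 to 11002 genes in all. Acvr1b, not called in any of these fits, had values of -0.12 to 0.018 log2 units, above 0 without array 1 and without array 3. Without array 3, limma gave all genes a common spread, so calls from that fit ignore each gene's own. No paired analysis was possible because there is a single group.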

Other observations

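Values held by many probe sets were common in the deposited table. Of its probe sets, 14102 held a single value on all 3 arrays, and these used 3713 different values, the most shared of them held by 129 probe sets. Among the 10129 genes with a single value, 18.6% had a value that no other such probe set held, as Tgfbr2 did, and the median number of probe sets on the value of such a gene was 13. Fst, with 112, and Inhbb, with 28, lay above that median.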
